A study of Homo sapiens with 24 samples.

Results

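RBFOX2-only places are stretches of RNA where both RBFOX2 eCLIP libraries of this series have a peak and none of the control or SLBP libraries does. They were chosen from the called peaks themselves: a peak of RBFOX2 replicate 1 that shares at least 1 nt on the same strand with a peak of replicate 2, and shares none with any peak of the IgG list or of the 4 SLBP lists, outside the mitochondrial chromosome and with no limit on fold or p. That gave 32162 places, or 43.1% of the 74676 replicate 1 peaks, out of 268256 peaks in the 7 lists together. Because peak calls chose the places, their widths, positions and folds are given here as a description, with no test. Without the requirement of a replicate 2 peak, 56559 replicate 1 peaks would have qualified, with a median log2 fold over input of 1.11 in place of 1.77.

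The libraries came from 293T cells, a widely used human embryonic kidney line that carries the SV40 large T antigen. All cells were crosslinked with ultraviolet light, and RNA bound to RBFOX2 (2 libraries), to SLBP (4 libraries) or to an isotype control IgG (1 library) was recovered after limited RNase I digestion. The RBFOX2, IgG and first 2 SLBP libraries received 40 U of RNase I, and SLBP replicates 3 and 4 received 5 U. Each had a size-matched input of its own, which enters here only through the authors' folds; 1 cell line, 1 lot of each antibody and 1 IgG library limit what the groups stand for, and the labels do not say whether replicates are separate cultures or technical repeats.

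RBFOX2 is a member of the Fox family of splicing regulators. Its RNA recognition motif binds GCAUG elements, most often in introns beside alternative exons, where binding downstream of an exon usually favours its inclusion and binding upstream usually favours its skipping. SLBP holds the stem-loop that ends replication-dependent histone messages, and an isotype IgG records RNA that comes down without a specific antibody. In eCLIP a peak marks a pile of reads in the immunoprecipitate, while the fold over input asks whether that pile is larger than the amount of the RNA in the lysate would give. A place called only with the RBFOX2 antibody can therefore still lie below input. No genome or annotation of the hg19 build was used here, so places are given by hg19 position and strand, counted from 1, and neither their sequence nor their genes are named.

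Of the 45211 replicate 1 peaks that shared at least 1 nt with replicate 2, 13049 (28.9%) met a peak of IgG or SLBP and were set aside. IgG met the most of them, 8693 (19.2%), and was the only list to meet 2940. SLBP replicates 1 to 4 met 13.9%, 13.0%, 10.7% and 8.85%. The SLBP lists were also the shorter ones, with 22896, 18236, 16836 and 10009 peaks against 28204 for IgG, 74676 for RBFOX2 replicate 1 and 97399 for replicate 2. Lists of fewer peaks can meet fewer places, the read depth of the libraries is unknown, and the part of list length in these shares was not tested. SLBP replicates 3 and 4, which had the shortest lists and lowest shares, also received 5 U of RNase I in place of 40 U. RNase amount and list length cannot be told apart here.

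Most RBFOX2-only places lay above input in both replicates, by a modest amount. The median log2 fold was 1.77 in replicate 1, with the middle of the distribution (quartiles) from 0.73 to 2.87, and 1.80 in replicate 2, with quartiles of 0.67 and 2.95. Replicate 2 values are those of its highest overlapping peak. Both replicates were above input at 25760 places (80.1%) and both below it at 2371 (7.37%). Over all replicate 1 peaks, with or without a partner, the shares were 41.4% and 10.8%, but peaks without a partner cannot count in either. Among the 45211 replicate 1 peaks with a partner, 30918 were above input in both and 8094 below it in both. Taken 1 list at a time, 67.5% of all replicate 1 peaks and 69.1% of all replicate 2 peaks were above input. Below-input values occurred at 4113 places (12.8%) in replicate 1 and 4660 (14.5%) in replicate 2, where the whole lists had 32.5% and 30.9%. Those lists include peaks without a partner, and the replicate 2 list was counted by its own peaks. Among the 13049 peaks with a partner that met IgG or SLBP, 50.3% and 54.1% were below input.

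A smaller part of the places was strongly enriched. Enriched here means a deposited log2 fold of 3 or more, or 8-fold, together with a −log10 p of 5 or more. In replicate 1, 4617 places (14.4%) were enriched, beside 7.97% of all replicate 1 peaks. On an enriched peak of replicate 2 lay 5315 places (16.5%), beside 8.57% of all replicate 1 peaks, with or without a partner. Counted by its own peaks, 7.68% of the replicate 2 list was enriched. In both replicates together 3325 places (10.3%, exact binomial 95% interval 10.0 to 10.7, for counting error only) were enriched, beside 5.48% of all replicate 1 peaks. These 3325 made up 81.3% of all replicate 1 peaks enriched in both libraries, and the other 764 met an IgG or SLBP peak. Only the 45211 peaks with a replicate 2 partner could count here. Of them, 32162 were RBFOX2-only places and 4089 were enriched in both. Where touching peaks were merged first, 6.86% of places were enriched in both. The rule asks for a peak in both RBFOX2 libraries, so a higher share than the whole list was built in and was not tested.

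**Figure D1:**
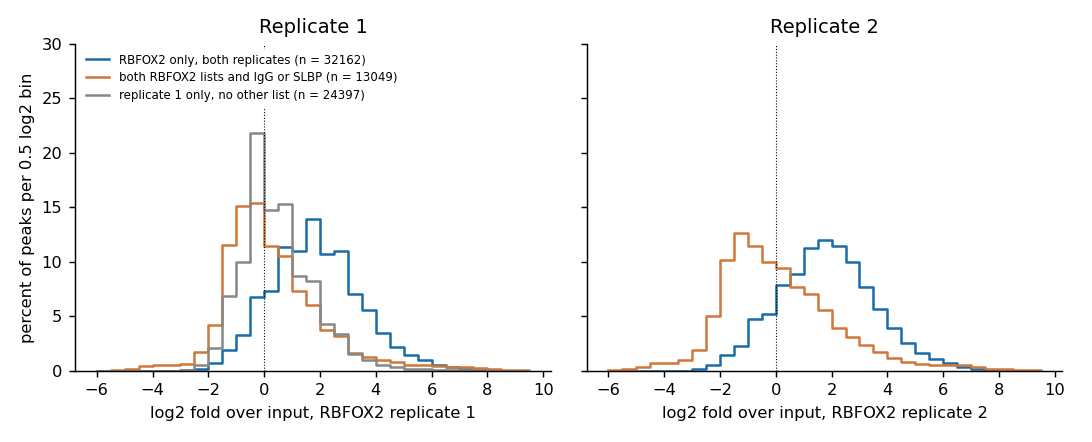
Share of peaks per 0.5 log2 bin (vertical axis, percent) against the authors' log2 fold over input in RBFOX2 replicate 1 (left) and replicate 2 (right), for RBFOX2-only places, for peaks of both RBFOX2 lists that also met an IgG or SLBP peak, and for replicate 1 peaks with no partner in any list. The RBFOX2-only places are centred at 1.77 and 1.80, to the right of the places shared with IgG or SLBP, which are centred at 0.00 and −0.22.

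Places set aside because another list had a peak there lay lower, and how low depended on which list it was. The 13049 peaks of both RBFOX2 lists that met any IgG or SLBP peak had median log2 folds of 0.00 and −0.22 in replicates 1 and 2, and 5.85% of them were enriched in both. Where IgG and all 4 SLBP lists had a peak (1922 peaks), the medians were −0.97 and −1.54, 83.0% were below input in both replicates and 0.572% were enriched in both. Where IgG alone had a peak (2940 peaks), the medians were 1.00 and 1.01 and 17.7% were enriched in both, a larger share than the 10.3% of RBFOX2-only places. Where SLBP but not IgG had a peak (4356 peaks), the medians were 0.25 and 0.14 and 2.82% were enriched in both. The RBFOX2-only places thus had higher medians than each of these sets but not the highest share of strong peaks. Replicate 1 peaks that met no other list and had no replicate 2 partner (24397) had a median log2 fold of 0.41 and were narrower, at a median of 27 nt. With 2 RBFOX2 libraries and sets made from the peak calls, these differences were not tested.

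The folds of the places were stepped, which bears on how finely they can be read. In replicate 1 the linear fold was a whole multiple of a step of 0.333 at 17274 places (53.7%), and in replicate 2 of a step of 0.227 at 18338 places (57.0%), to within a millionth of the value. The lists hold no read counts, and the source of the steps was not tested. The whole lists, of which these places are a part, had 46.9% and 52.7% of all peaks on whole multiples. The steps were thus not confined to these places. Across the whole lists 90.1% and 93.3% of folds were multiples of these steps divided by a whole number from 1 to 10. Among peaks that met an IgG or SLBP peak, only 16.2% and 17.6% lay on whole multiples, and among those that met all 5 lists 2.71% and 2.60%. The RBFOX2-only places on whole multiples stood at a median of 14 steps in replicate 1 and 19 in replicate 2. The step was found after the values were seen, as the most common fold of each list divided by 3.

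The replicates agreed on the order of the places and, for most of them, on the size of the fold. Over the 32162 places Pearson's r between the log2 folds of replicates 1 and 2 was 0.76 and Spearman's rho was 0.74; the points share their libraries and, within a transcript, their RNA, so this describes the 2 lists. The median difference, replicate 2 minus replicate 1, was −0.03, and the median size of the difference was 0.77. The 2 folds lay within 1 log2 unit of each other at 19901 places (61.9%) and over 2 units apart at 2689 (8.36%). The 2 folds of a single place thus often differed by a large part of a log2 unit, while the medians of the replicates were nearly equal.

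**Figure D2:**
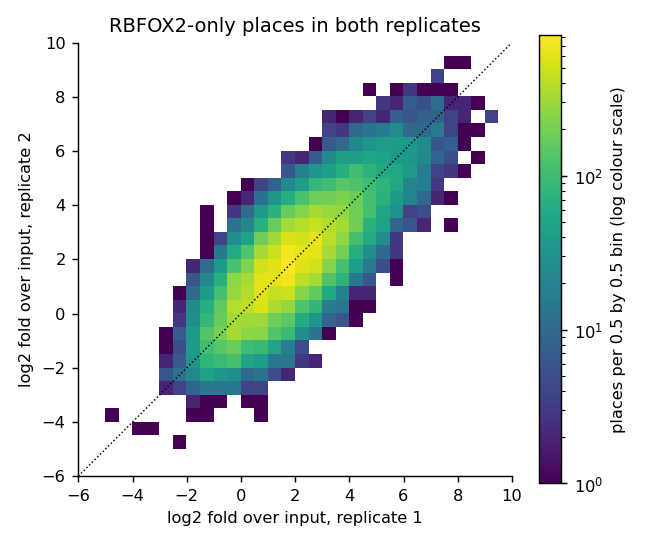
Log2 fold over input in RBFOX2 replicate 1 (horizontal) and replicate 2 (vertical) for the 32162 RBFOX2-only places, counted in bins of 0.5 by 0.5; colour gives the number of places on a log scale and the dotted line marks equal folds. The cloud follows the line (Pearson's r of 0.76) and 8.36% of places lie over 2 log2 units apart.

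The rule admitted only peaks that overlap between the replicates, so their positions are close by choice, and the following values describe that overlap. At 26361 places (82.0%) 1 peak of replicate 1 met 1 peak of replicate 2 and no other; these pairs had median widths of 40 and 45 nt, and their midpoints lay a median of 4.5 nt apart, with no lean towards either end of the transcript (median signed shift of 0 nt). In 78.4% of the pairs the midpoints were within 10 nt. A median of 95.7% of a place was covered by replicate 2 peaks, and 14391 places (44.7%) were covered from end to end. At 3028 places (9.41%) a replicate 1 peak spanned more than 1 replicate 2 peak, up to 8. At 573 places (1.78%) the replicate 2 peak itself reached an IgG or SLBP peak that the replicate 1 peak did not touch.

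How a replicate 1 peak fared depended on its fold, and the lists that met it differed along the scale. Of replicate 1 peaks with a log2 fold below 0, 17.0% became RBFOX2-only places, rising to 56.2% at 1 to 2, 79.9% at 3 to 4 and 80.5% at 4 to 5. In the strongest class, 5 or more, the share was lower again, at 71.7% of 1677 peaks. That class was not short of replicate 2 partners: of the 1316 peaks there that met no other list, 91.3% had one, against 28.9% below 0. The share that met IgG and the share that met SLBP differed there. The share of peaks that met an IgG peak fell from 27.3% below 0 to 5.08% at 3 to 4 and then stood at 20.3% at 5 or more. For SLBP it fell from 34.7% below 0 to 4.42% at 3 to 4 and stayed at 3.94% at 5 or more. The exclusion by IgG therefore removed peaks at both ends of the RBFOX2 scale, and the exclusion by SLBP removed mostly peaks at the low end. These shares rest on 1 IgG library, and the difference between IgG and SLBP was not tested.

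**Figure D3:**
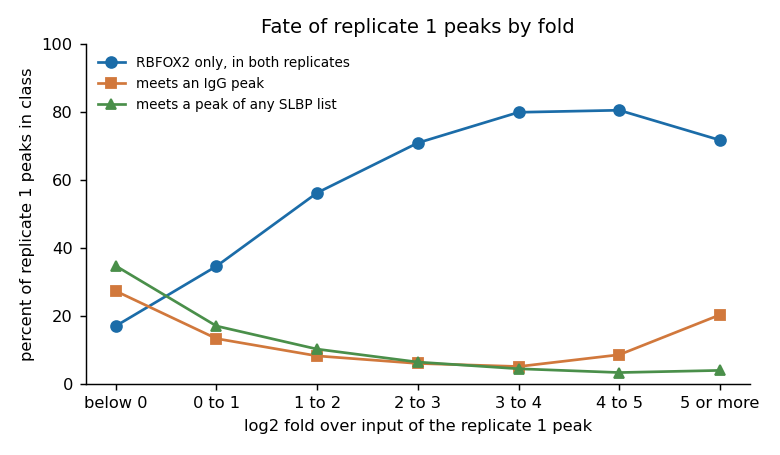
Replicate 1 peaks grouped by their log2 fold over input (horizontal), with the percent in each class that are RBFOX2-only in both replicates, that meet an IgG peak, or that meet a peak of any SLBP list (vertical). The RBFOX2-only share reaches 80.5% at 4 to 5 and is 71.7% at 5 or more, where the IgG share is 20.3% and the SLBP share 3.94%.

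By fold in replicate 1, 4113 places lay below 0, 6014 at 0 to 1, 8017 at 1 to 2, 6971 at 2 to 3, 4046 at 3 to 4, 1799 at 4 to 5 and 1202 at 5 or more. The median replicate 2 fold of these classes was −0.17, 0.78, 1.67, 2.32, 3.07, 3.97 and 5.19, so the order was kept class by class. Places in the lowest class were 33 nt wide at the median and those in the class at 4 to 5 were 56 nt wide. The authors' p-value was small at few of them. It reached 5 on the −log10 scale at 5516 places (17.2%) in replicate 1 and 6268 (19.5%) in replicate 2, and the median −log10 p was 1.05 and 1.00. Over all peaks of the replicate 1 and replicate 2 lists, each counted by its own peaks, 10.1% and 9.90% reached it. At 1272 places in replicate 1 and 1414 in replicate 2 the −log10 p was exactly 15.66, the most common value from 5 upward, so these places cannot be ranked by p.

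The places were short. Their width ran from 1 to 235 nt with a median of 41 nt (quartiles 28 and 56) and a mean of 44.5 ± 24.1 nt (SD over places), and together they covered 1431 kb. Peaks of the whole lists were shorter still at the median. The values were 35 and 36 nt for RBFOX2 replicates 1 and 2, 32 nt for IgG and 32 to 36 nt for SLBP. Places enriched in both replicates were 55 nt wide at the median and the rest 40 nt. The median log2 fold in replicate 1 rose with width, from 1.00 at 1 to 10 nt to 1.41 at 21 to 40 nt, 2.52 at 61 to 100 nt and 3.19 above 100 nt. In replicate 2 the same classes stood at 1.32, 1.53, 2.46 and 3.11. Wide peaks also found a partner more often, and so qualified more often: 34.4% of replicate 1 peaks of 1 to 10 nt met a replicate 2 peak, against 94.9% of those over 100 nt, and 23% and 59.6% were RBFOX2-only. Width was therefore part of the choice. The 959 places above 100 nt were 2.98% of the total and were enriched in both replicates in 34.5% of cases.

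The limit of 1 nt left few places at its edge. Places that shared 1 to 5 nt with replicate 2 numbered 956, with a median log2 fold of 1.00 in replicate 1, and 413 other peaks lay 0 to 5 nt short of a replicate 2 peak, with a median of 0.73. On the side of the exclusion, 308 places lay 0 to 5 nt from an IgG or SLBP peak (median 0.97), and 508 peaks were set aside for 1 to 5 nt of such a peak (median 0.47). The strand mattered little. On the opposite strand 44 places (0.137%) met an IgG or SLBP peak, 98 (0.305%) a peak of RBFOX2 replicate 1 and 138 (0.429%) one of replicate 2. Among the 13049 shared peaks set aside, the shares were 0.169%, 0.483% and 0.513%, so low values were not particular to these places.

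The spacing of the places had a near and a far scale. Of the 32115 gaps between neighbours on a strand, 2426 (7.55%) were 0, so that the peaks touched, 6256 (19.5%) were 1 to 200 nt and 4086 (12.7%) were longer, up to 1000 nt. The median gap was 3791 nt, with quartiles of 161 and 57800 nt, and 6495 gaps (20.2%) were over 100000 nt. On a log scale the gaps formed a first rise that was highest in the bin starting at 100 nt (1693 gaps) and a second in the bin starting at 10000 nt (1785 gaps), with a dip to 1324 in the bin that ends at 1000 nt. Joining places within 1000 nt, as loci, cut near this dip.

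The 32162 places formed 19394 loci, of which 5979 (30.8%) held more than 1 place. Those held 18747 places (58.3%) and spanned a median of 411 nt, up to 4605 nt. Places alone in their locus numbered 13415. Locus size went with strength. Places alone in a locus had median log2 folds of 1.47 and 1.36 in replicates 1 and 2, and 2.53% were enriched in both replicates. Where 2 to 5 places lay together, the medians were 1.73 and 1.86 and the share 8.57%. With 6 to 10 places they were 2.89 and 3.13 and 33%, and with over 10 places, in 85 loci, 4.06 and 4.23 and 60.9%. Places in larger loci also lay nearer to IgG or SLBP peaks. The median distance was 4134.5 nt alone, 1006 nt at 2 to 5, 539.5 nt at 6 to 10 and 255.5 nt above 10 places. Of the 5979 loci with more than 1 place, 1344 (22.5%) had an IgG or SLBP peak inside. The part of these neighbouring peaks in the gradient was not tested.

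The gradient was smaller when touching peaks were counted once. With touching places merged, the 32162 became 29736 sites, and the share of sites enriched in both replicates was 3.31% alone, 9.04% at 2 to 5, 24.9% at 6 to 10 and 28.2% above 10 sites, where 255 sites remained. The order of the classes held, with a lower highest share than when peaks were counted. Counted in peaks, 1427 loci (7.36%) held at least 1 place enriched in both replicates and 580 held more than 1 such place. Of all loci, 30.8% held more than 1 place of any strength. Whether enriched places were grouped more than the others was not tested. Within a locus of several places, the highest and lowest log2 folds lay a median of 1.35 apart in replicate 1 and 1.32 in replicate 2. Plus and minus strands shared the places almost evenly, with 51.2% on the plus strand.

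**Figure D4:**
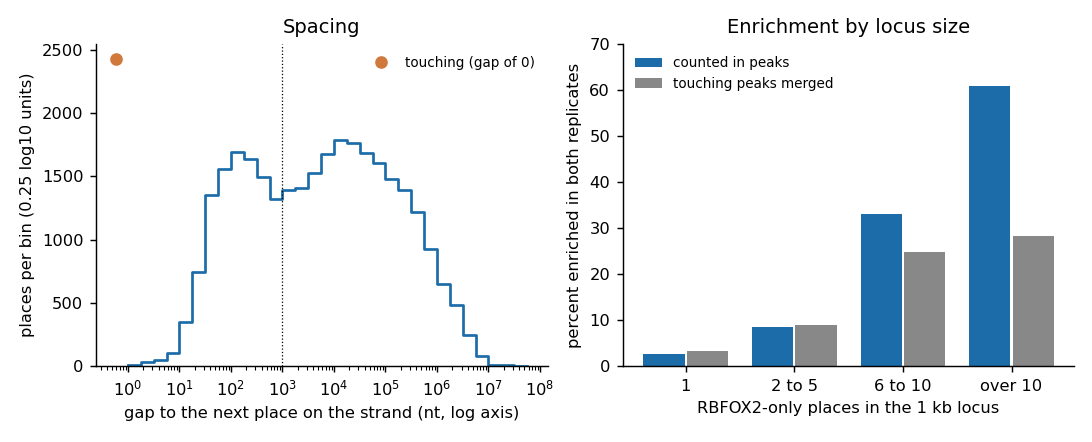
Left, the number of RBFOX2-only places by the gap to the next place on the same strand, on a log axis in bins of 0.25 log10 units; the dot gives the 2426 touching places, whose gap of 0 has no position on a log axis, and the dotted line marks 1000 nt. Right, the percent enriched in both replicates by the number of places in the locus, counted in peaks (from 2.53% to 60.9%) and with touching peaks merged into sites (from 3.31% to 28.2%).

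Being called only with RBFOX2 did not mean lying far from every other peak. The median distance on the strand to the nearest IgG or SLBP peak was 1550 nt, with quartiles of 246 and 12145 nt. Places within 200 nt numbered 7192 (22.4%), and 17927 (55.7%) were over 1000 nt away and 6415 (19.9%) over 20000 nt away. The median log2 fold in replicate 1 was 1.48 at 11 to 50 nt, 1.73 between 200 and 1000 nt, 2.06 between 5 and 20 kb and 1.5 above 100000 nt; in replicate 2 it was 1.70, 1.86, 1.95 and 1.32. The share enriched in both replicates ran the other way at short range, from 16.9% at 11 to 50 nt to 9.86% between 200 and 1000 nt and 8.52% above 100000 nt.

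The list that lay near made a difference to these values. With an IgG peak and no SLBP peak within 200 nt (2178 places), the median log2 folds were 2.00 and 2.11, and 25.3% of places were enriched in both replicates. With an SLBP peak and no IgG peak near (2861 places), they were 1.37 and 1.54, and 6.36%. With both near (2153 places) they were 1.22 and 1.45, and 10.6%, and with neither (24970 places) 1.87 and 1.86, and 9.47%. The share of strong places was thus highest near IgG without SLBP, while the medians were lowest where both were near. The part of IgG signal in these folds was not tested.

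Every autosome and the X chromosome held RBFOX2-only places, 32161 in all, and the remaining place lay on the Y chromosome. Chromosomes 1, 17 and 19 held the most, with 3269, 2342 and 2233. As a share of the replicate 1 peaks called on a chromosome, the places stood highest on chromosome 18 (49.95%, exact 95% interval 46.8 to 53.1), chromosome 22 (49.3%, 47.2 to 51.5) and chromosome 10 (48.1%, 46.1 to 50.2). They stood lowest on the X chromosome (36.5%, 34.7 to 38.4), chromosome 11 (40.04%, 38.7 to 41.4) and chromosome 12 (41.0%, 39.6 to 42.5). The intervals cover counting error only, and neighbouring peaks of a transcript are not independent.

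Taken from replicate 2, which is the longer list, every share was lower, and the order was kept in part. Chromosome 22 was then highest, at 37.7%, followed by chromosome 9 at 37.1% and chromosome 20 at 36.7%; chromosome 18 stood at 36.1% and the X chromosome was again lowest, at 32.1%. Chromosomes 5 and 14 came next, at 32.4% and 32.5%, while chromosomes 11 and 12 were no longer among the lowest 3, at 34.2% and 33.7%. Across the 23 chromosomes the shares from the 2 lists correlated with Pearson's r of 0.87, a description of lists that are matched to each other by the rule. Both steps of the rule varied between chromosomes. On chromosome 18, 59.7% of replicate 1 peaks had a replicate 2 partner and 16.4% of those met IgG or SLBP, while on the X chromosome the values were 62.0% and 41.1%. On chromosome 22 both replicates met at 68.7% of peaks, the highest of the 23, and 28.2% of those met IgG or SLBP, near the 28.9% of all chromosomes.

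**Figure D5:**
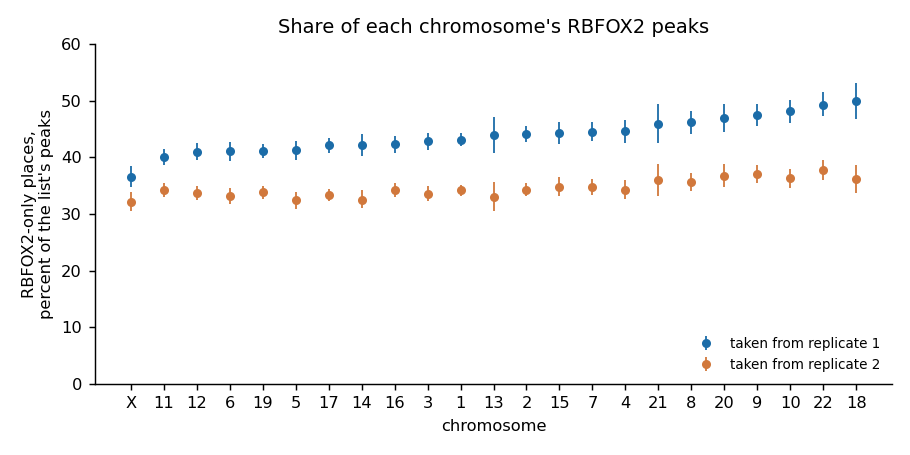
RBFOX2-only places as a percent of the RBFOX2 peaks called on each chromosome (vertical), with the places taken from replicate 1 or from replicate 2, in the order of the replicate 1 share (horizontal); bars are exact binomial 95% intervals. The X chromosome is lowest in both, at 36.5% and 32.1%, and chromosomes 18 and 22 are highest from replicate 1.

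Strength also varied by chromosome. Places enriched in both replicates made up 17.4% of the places on chromosome 22, 15.6% on chromosome 10 and 14.3% on chromosome 9, where 9.95%, 8.60% and 7.90% of all replicate 1 peaks on those chromosomes were. The lowest were chromosome 12 at 7.47% and chromosome 8 at 7.72%, beside 3.85% and 4.13% of all their peaks. Peaks without a replicate 2 partner cannot be enriched in both, so lower shares over all peaks were built in. On chromosomes 22, 10 and 9, 68.7%, 61.9% and 61.6% of replicate 1 peaks had a partner. On chromosomes 12 and 8 the values were 59.7% and 60%. Median log2 folds over the 23 chromosomes ran from 1.58 to 2.11 in replicate 1 and from 1.56 to 2.32 in replicate 2, and median widths from 39 to 43 nt, so width hardly differed. Set against the protein-coding genes that RefSeq lists on each chromosome in GRCh38.p14, there were between 70.8 (X chromosome) and 127 (chromosome 22) loci per 100 genes; loci were not matched to genes.

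The strongest RBFOX2-only places were found by ranking the 4108 places with −log10 p of at least 5 in both replicates on the lower of their 2 log2 folds and keeping 1 place per locus. The first 10 had lower-replicate folds between 7.09 and 8.01, and 4 lay on the plus strand. The top place, chromosome 2 at 240287590 to 240287614 (minus), had a log2 fold of 8.01 in replicate 1 and 9.42 in replicate 2. Its locus, 240287205 to 240288013, held 12 places, all enriched in both replicates, and 2 IgG peaks with a highest log2 fold of 6.31. The second, on chromosome 16 at 3104358 to 3104392 (minus), had 8.54 and 7.96, and the nearest other-list peak was 25 nt away.

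The third, on chromosome 7 at 100173101 to 100173122 (minus), had 7.87 and 8.37 and lay 5 nt from an IgG peak. IgG peaks thus lay within 1000 nt of each of these first 3 loci. The fourth was different: on chromosome 10 at 3127108 to 3127126 (plus), it had 7.72 and 7.61, its 3 places were all enriched, and the nearest IgG or SLBP peak lay 16594 nt away. It was the only locus of the 10 with no IgG peak within 1000 nt, while 3 of the 10 had an SLBP peak that near. A second locus on the same chromosome and strand, at 3166697 to 3167385, held 17 places, all enriched, and its named place at 3167078 to 3167099 had 7.19 and 7.12.

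The other 5 lay on chromosomes 1, 21, 10, 5 and 6. On chromosome 1 at 3639490 to 3639546 (plus) the folds were 7.81 and 7.29, and on chromosome 21 at 46622750 to 46622786 (plus) they were 7.23 and 7.92. Chromosome 10 at 725678 to 725749 (minus) had 7.20 and 7.20 in a locus of 16 places, all enriched in both replicates. Here the replicates gave nearly the same value. Chromosome 5 at 139646718 to 139646781 (minus) had 7.10 and 7.79, and chromosome 6 at 116573649 to 116573705 (minus) had 7.53 and 7.09. The chromosome 6 locus was mixed, with 5 of 9 places enriched and folds down to 1.89 in replicate 1. The highest IgG fold within 1000 nt of these 9 loci with IgG peaks ran from 3.12 to 6.31.

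Places far from any other peak also reached high folds, but in the weaker replicate they stayed below the 7.09 of the tenth locus above. Among the 6415 places over 20000 nt from every IgG and SLBP peak, which lay in 4650 loci, 572 (8.92%) were enriched in both replicates. The 5 strongest loci, a choice made after the values were seen, were ranked in the same way. Chromosome 22 at 47002558 to 47002610 (plus) had log2 folds of 7.03 and 6.92, in a locus of 8 places that were all enriched, 249457 nt from the nearest other-list peak. Chromosome 10 at 103180140 to 103180194 (plus) had 7.19 and 6.71, and chromosome 20 at 42344337 to 42344409 (plus) had 6.60 and 7.43. Chromosome 8 at 141679995 to 141680041 (minus) had 6.64 and 6.43, in a locus with 5 of 6 places enriched. Chromosome 5 at 14348597 to 14348764 (plus) had 6.62 and 6.30. All 5 were clusters of 4 to 8 places within 1139 nt or less. Ranking loci by their strongest place favours loci of many places. Whether strong places far from other lists were grouped in general was not tested.

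The 5 loci with the most places differed in strength. The locus with the most places, on chromosome 16 at 87737427 to 87740913 (minus), held 29, of which 23 were enriched in both replicates, with median log2 folds of 5.67 and 5.92. Chromosome 7 at 43656767 to 43658998 (minus) held 22, with 21 enriched and medians of 5.99 and 6.07. Chromosome 4 at 2826692 to 2828957 (plus) held 22, with 16 enriched and medians of 4.82 and 3.52. On chromosome 2 at 74601656 to 74604994 (minus) there were 20 places, of which 6 were enriched, with medians of 3.04 and 3.45.

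The weakest of the 5, on chromosome 11 at 65270115 to 65271886 (plus), held 22 places of which 0 were enriched, with medians of 1.54 and 1.62. Within 1000 nt of it lay 27 IgG peaks and 88 SLBP peaks over the 4 lists, and 42 replicate 1 peaks lay inside it. Its highest log2 folds were 2.90 and 2.47. The many RBFOX2-only places there lay on a stretch that IgG and SLBP libraries marked as well.

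The 3 widest places stood alone in their loci. Chromosome 1 at 26606904 to 26607138 (plus, 235 nt) had log2 folds of 2.64 and 2.75, and chromosome 2 at 71045000 to 71045229 (minus, 230 nt) had 1.32 and 3.11. Chromosome 11 at 120280273 to 120280498 (plus, 226 nt) had 3.38 and 4.56 and was the only one of these enriched in both replicates. None of the 3 was among the strongest places named above.

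The 3 places lowest in their better replicate lay far below input in both. Chromosome 7 at 6056531 to 6056563 (plus) had −3.97 and −4.18, 1 nt from a peak of another list. Chromosome 6 at 43970500 to 43970540 (plus) had −4.91 and −3.82, and chromosome 14 at 21077485 to 21077548 (minus) had −3.27 and −4.40. The last 2 lay 216676 and 147897 nt from any IgG or SLBP peak, so values below input in both replicates also occurred far from any control peak.

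The widest disagreements between replicates, among places with −log10 p of at least 5 in both, lay at 2 loci. On chromosome 1 the touching places at 146715169 to 146715218 and 146715219 to 146715263 (plus) had 3.48 and 3.11 in replicate 1 and met the same highest value, 7.42, in replicate 2. On chromosome 16 at 85678790 to 85678854 (plus) the fold was 6.82 in replicate 1 and 3.11 in replicate 2, in a locus whose 12 places were all enriched in both. All 3 places passed the limit for enrichment in both libraries although their folds were about 4 log2 units apart.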

How the data were processed

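The 7 peak lists were used as deposited, each peak having an interval, a strand, a log2 fold and the p-value as −log10. Both values are the authors' own, for the immunoprecipitate against its paired input, read so from the values and the naming of the lists; −log10 p is 0 for every peak below input and for some above it, piles up at 15.66 and reaches at most 400. Per the submitters' processing notes, the tools were SAMtools, Picard, GATK, STAR and cutadapt, with hg19 as the build; which peak caller was used is not stated there. Of the 24 samples, the 7 inputs and 10 RBFOX2 samples at 8 RNase I amounts were not analysed here directly.

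Overlaps of at least 1 nt on the same strand were computed in Python 3.11.15 with pandas 2.3.3 and checked on simulated data. A member's replicate 2 value is that of its highest overlapping peak. Members within 1000 nt on a strand were joined into loci. Named places are the 10 loci highest in their weaker replicate, the 5 with the most members, the 3 widest, the 3 lowest in their better replicate and the 3 with the widest gap between replicates; chromosomes are the 3 highest and the 3 lowest, and the 5 loci far from other lists were added after the values were seen. The members, lists and limits were chosen with earlier results of these data known. Members were not tested, because the peak calls of all lists chose them; Dixon's outlier check over the 4 SLBP lists, for 2 shares, gave ratios of 0.357 and 0.692, under the critical value of 0.829. The 4 lists differ in RNase I amount and in length, so this check cannot show that they are alike. The SDs and intervals cover places or counting error only.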

Additional observations from a re-analysis of the deposited data

How the results depend on the processing

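The number of members, 32162 as reported, was between 24991 (exclusion within 200 nt) and 44994 (exclusion only by enriched IgG or SLBP peaks) over 8 other settings of overlap, strand, exclusion, merging and starting list. It was 3325 with both peaks required to be enriched, and 32492 to 56559 when 1 of the other 6 lists was left out, the highest without RBFOX2 replicate 2. The share enriched in both replicates, 10.3%, was 11.2% with coverage of at least 50% of the peak, 10.9% by midpoint, 11.1% from replicate 2, 9.47% with exclusion within 200 nt, 8.87% with exclusion only by enriched peaks and 6.86% with touching peaks merged. It was 12.9% with −log10 p of at least 3, 12.6% with log2 fold of at least 2 and 4.72% with 8 and 4 as limits, and 10.1% to 10.95% with an IgG or SLBP list left out.

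The median log2 fold in replicate 1, 1.77, moved to 1.87 (coverage, midpoint, replicate 2 as start, or exclusion within 200 nt), 1.73 (exclusion only by peaks above input), 1.66 (touching peaks merged) and 1.35 (exclusion only by enriched peaks), and lay between 1.11 and 1.73 with a list left out; these alternatives were added after the lists were seen. That in replicate 2, 1.80, was 1.77 by overlap-weighted mean or longest overlap. Exclusion on either strand gave 32118 members, 10.3% enriched in both and a replicate 1 median of 1.78. Loci numbered 23480 and 15397 when joined within 200 nt and 5 kb, and merging touching members gave a median width of 42 nt. All 23 chromosome shares were lower when taken from replicate 2. The motif alternative was not run, as no hg19 genome was used here. Read depth is unknown, so no interval can be set on a single fold.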
